A study of Mus musculus with 14 samples.

Results

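The mitochondrial genome of the mouse carries the 37 genes described here: 13 messenger RNAs (mRNAs), 2 ribosomal RNAs (rRNAs) and 22 transfer RNAs (tRNAs). They were taken as every gene whose symbol in the GRCm38 annotation begins with mt-, and all 37 were among the 53465 genes of the count tables. Of the 37, 28 lie on the plus strand of the annotated chromosome M and are called heavy strand genes below, because they are read from the heavy strand. The other 9, mt-Nd6 and 8 tRNAs, are light strand genes. RNA of the anterior cingulate cortex, on the inner face of the frontal lobe, was sequenced in bulk from 2 inbred strains, AKR/J (AKR) and C57BL/6NJ (B6N). The groups were AKR mice after observational fear conditioning (AKR OFL, 3 libraries), B6N mice after it (B6N OFL, 3 libraries), naive AKR mice (AKR naive, 4 libraries) and naive B6N mice (B6N naive, 4 libraries). In that procedure a mouse sees a demonstrator being shocked. The labels give no transgene, mutation or agent for any group, and the age and sex of the mice and the number of animals in a library are not given in the sources used here. Since no source ties each library to its own animal, the p-values below reflect variation among libraries alone, and that variation may be technical.

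Mitochondrial DNA is transcribed from both strands as long RNAs that run through many genes. Most tRNA genes sit between the larger genes, and cutting the tRNAs out frees the mRNAs and rRNAs on either side. Most of the mRNAs receive short poly(A) tails, and several have no complete stop codon until the tail is added. Their proteins are core subunits of respiratory complexes I (the Nd genes), III (mt-Cytb) and IV (the Co genes) and of the ATP synthase, complex V (the Atp genes), and the remaining subunits are encoded in the nucleus. The brain depends heavily on these complexes, and mitochondrial transcripts are abundant in neurons. Stretches of mitochondrial DNA have also been copied into nuclear chromosomes during evolution, and a read from such a stretch can match in both places.

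The sequences below show where counting is limited, and they come from the GENCODE M21 transcripts of GRCm38, read 5′ to 3′. The first pair is the opening of mt-Nd3 (chrM:9459-9558, plus strand) and of Gm28438, its copy on chromosome 1 (chr1:24613020-24613119, minus strand). The capital letter marks the only base that differed over the 345 bases compared, T3C, counted from 1 at the 5′ end with the mt-Nd3 base first.
mt-Nd3: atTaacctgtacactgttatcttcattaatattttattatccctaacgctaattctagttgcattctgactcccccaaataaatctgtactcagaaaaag
Gm28438: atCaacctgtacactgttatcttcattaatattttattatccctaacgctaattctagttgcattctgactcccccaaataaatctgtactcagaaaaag
The next pair shows genes that overlap within the mitochondrial genome. In the end of mt-Atp8 (chrM:7907-7969, plus strand) the capitals are the 43 bases that also belong to mt-Atp6 on the same strand, and in the end of mt-Nd5 (chrM:13532-13565, plus strand) they are the 14 bases that lie under mt-Nd6 on the other strand. The strand setting of the counting is not given in the sources used here, so reads from the 2 strands may not have been told apart.
mt-Atp8: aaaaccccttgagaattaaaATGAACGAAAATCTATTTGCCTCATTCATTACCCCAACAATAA
mt-Nd5: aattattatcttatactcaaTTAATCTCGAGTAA
The last pair is the tRNA genes with the highest counts in the OFL and in the naive libraries, mt-Tw for tryptophan (chrM:4950-5016, plus strand) and mt-Tp for proline (chrM:15356-15422, minus strand), each printed whole.
mt-Tw: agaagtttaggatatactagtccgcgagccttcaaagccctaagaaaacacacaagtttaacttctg
mt-Tp: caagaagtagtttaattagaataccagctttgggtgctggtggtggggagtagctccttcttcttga

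Total counts per library were 13487311 to 14396289 in AKR OFL, 14063573 to 14526253 in B6N OFL, 19073921 to 23782061 in AKR naive and 20583264 to 25780227 in B6N naive. Levels are given as CPM, the counts scaled to library size by the trimmed mean of M-values (TMM). The neuronal marker Snap25 was at 1398 to 1574 CPM in OFL libraries and at 1748 to 1952 CPM in naive libraries, whereas the choroid plexus marker Ttr stayed at or below 1.23 CPM. Summed blood markers were lower in AKR than in B6N under both conditions, at 35.2 to 46.3 CPM in AKR OFL against 75.8 to 97.7 in B6N OFL and at 18.9 to 33.2 CPM in AKR naive against 47.5 to 55.7 in B6N naive, and the part of blood in the strain differences was not tested. The OFL and naive libraries were deposited as separate tables and also differed in RNA that carries no poly(A) tail. The small nuclear RNA Rn7sk stood at 689 to 941 CPM in OFL libraries and at 1.40 to 3.47 CPM in naive libraries. Of the genes for which 80% or more of the exonic sequence lies under a gene of the other strand, 116 were tested. Of these, 104 were higher in AKR OFL than in AKR naive and 102 were higher in B6N OFL than in B6N naive. Over all genes 39.8% were higher in AKR and 40.0% in B6N. Only 19 genes of this class passed the count filter among naive libraries alone, against 82 among OFL libraries alone. Many thus entered the test through the OFL libraries, where they are high, and these counts carry little weight. The condition and the library set cannot be told apart, and the strain comparisons within each condition do not cross that boundary.

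The 37 genes together took less of the OFL libraries than of the naive ones. They held 0.752%, 0.758% and 0.785% of all counts in AKR OFL and 0.815%, 0.850% and 0.775% in B6N OFL, against 1.90%, 1.56%, 1.67% and 1.61% in AKR naive and 1.65%, 1.62%, 1.78% and 1.72% in B6N naive. The OFL and naive libraries did not overlap, and the strains overlapped under both conditions. In RNA of whole tissue, fewer cells of a type and less RNA per cell cannot be told apart. The make-up of the mitochondrial counts differed as well. The 2 rRNAs made up 38.2% to 43.2% of them in OFL libraries, 14.5% to 15.7% in AKR naive and 18.03% to 19.5% in B6N naive. The 13 mRNAs made up 56.7% to 61.6% in OFL libraries, 84.1% to 85.3% in AKR naive and 80.2% to 81.7% in B6N naive. Light strand genes took 0.0975% to 0.127% of the mitochondrial counts in AKR OFL and 0.128% to 0.170% in B6N OFL, against 2.61% to 2.68% in AKR naive and 2.93% to 2.97% in B6N naive. In the naive libraries the strains did not overlap in any of these 3 shares, whereas after OFL the light strand share alone separated them, narrowly. In naive libraries mt-Nd6 and mt-Tp held almost all the light strand counts. The other light strand tRNAs were not all lower in OFL libraries, so the share describes mainly mt-Nd6 and mt-Tp. The tRNAs held 0.127% to 0.156% of the mitochondrial counts in AKR OFL and 0.142% to 0.149% in B6N OFL, against 0.203% to 0.215% in AKR naive and 0.231% to 0.251% in B6N naive.

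**Figure D1:**
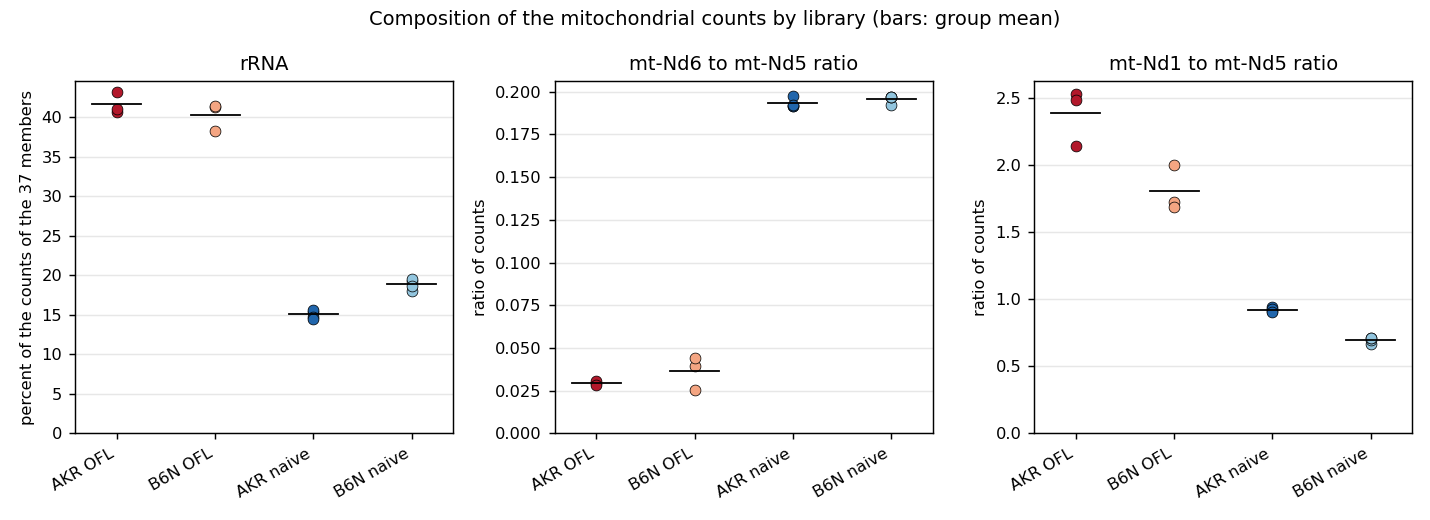
Percentage of the counts of the 37 genes on the 2 rRNAs (left), and ratios of mt-Nd6 to mt-Nd5 counts (middle) and of mt-Nd1 to mt-Nd5 counts (right), with a point for each library and a bar for each group mean. The rRNA share was 38.2% to 43.2% in OFL libraries against 14.5% to 19.5% in naive libraries, and the mt-Nd6 to mt-Nd5 ratio was at most 0.0444 in OFL libraries and at least 0.192 in naive libraries.

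**Figure D2:**
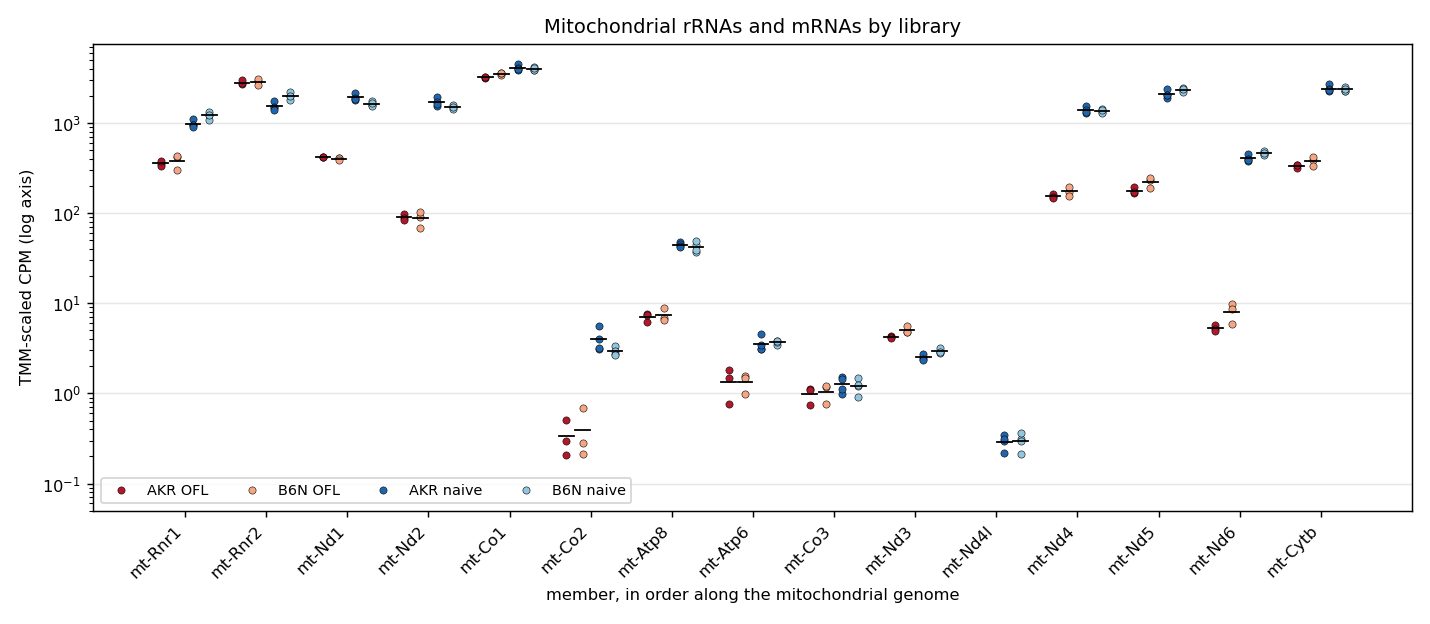
Level of the 2 rRNAs and 13 mRNAs in each of the 14 libraries, as TMM-scaled CPM on a log axis, in gene order along the mitochondrial genome; each point is a library and each bar a group mean. The levels span from under 1 CPM (mt-Nd4l, mt-Co2 in OFL) to 4598 CPM (mt-Co1 in an AKR naive library), and libraries at 0, all OFL libraries for mt-Nd4l, are not drawn.

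Per kilobase of gene, mt-Co1, the catalytic core of complex IV, had the highest level of the 13 mRNAs in every group, at 2108 CPM per kilobase in AKR OFL, 2289 in B6N OFL, 2676 in AKR naive and 2621 in B6N naive. In naive libraries mt-Cytb followed with 2120 CPM per kilobase in AKR and 2072 in B6N, then mt-Nd1, a membrane subunit of complex I, with 2022 in AKR and 1722 in B6N. In OFL libraries mt-Nd1 came after mt-Co1, with 442 CPM per kilobase in AKR and 421 in B6N, and mt-Cytb stood at 292 in AKR and 335 in B6N. The larger rRNA mt-Rnr2 reached 1788 CPM per kilobase in AKR OFL and 1833 in B6N OFL, against 971 in AKR naive and 1268 in B6N naive. The smaller rRNA mt-Rnr1 stood at 375 CPM per kilobase in AKR OFL and 400.0 in B6N OFL, against 1029 in AKR naive and 1277 in B6N naive.

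The 5 mRNAs whose sequence is almost wholly repeated in the nucleus were the lowest per kilobase in naive libraries, and in OFL libraries only mt-Nd6, at 10.2 CPM per kilobase in AKR and 15.6 in B6N, lay near them. Stretches of 31 bases that also occur in annotated nuclear transcripts made up 100% of mt-Co2 (complex IV), 99.9% of mt-Co3 (complex IV), 99.5% of mt-Atp6 (the proton channel subunit of complex V), 98.9% of mt-Nd4l and 98.1% of mt-Nd3 (both complex I). None of the other 8 mRNAs was above 63.9% (mt-Co1). These 5 genes together held 0.0628% to 0.105% of the mitochondrial counts, and their levels lay between 0 and 14.6 CPM per kilobase in all 4 groups. Over the 13 mRNAs the level per kilobase and the shared share had a Spearman rho of -0.67 in AKR OFL, -0.70 in B6N OFL, -0.71 in AKR naive and -0.72 in B6N naive, as a description over genes that share libraries and a genome. How the authors treated reads that match in several places is not given in the sources used here, and its part in these levels was not tested.

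**Figure D3:**
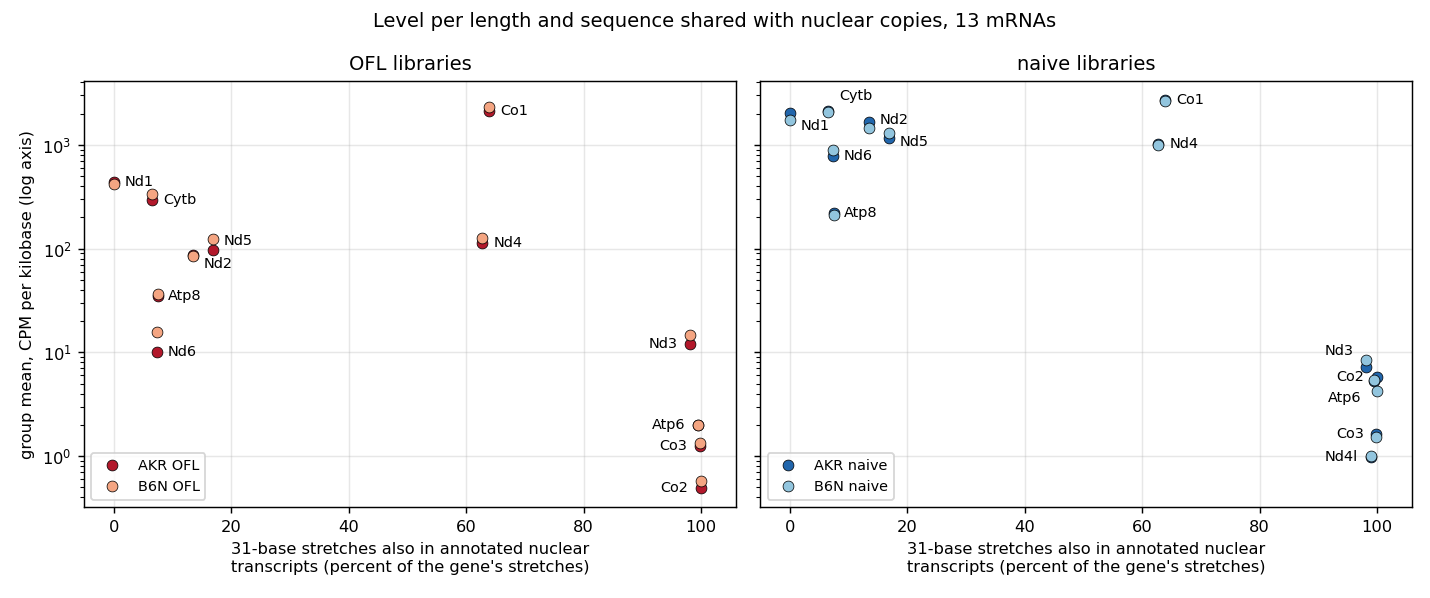
Group mean level (CPM per kilobase, log axis) of the 13 mRNAs against the percentage of their 31-base stretches that also occur in annotated nuclear transcripts, for OFL libraries (left) and naive libraries (right). The 5 genes above 98% lie between 0.495 and 14.6 CPM per kilobase, and mt-Nd4l, at 0 in OFL libraries, is missing from the left panel.

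In all, 14 of the 37 genes shared at least 1 such stretch with an annotated nuclear transcript, and 23 shared none, among them mt-Nd1, mt-Rnr1 and mt-Tp. The count tables held 16 nuclear copies of 12 of these genes. A block on chromosome 1 (24611535 to 24616197, minus strand, GRCm38) holds 7 of them. Its copies of mt-Co2 (681 bases compared), mt-Co3 (783), mt-Atp6 (678), mt-Nd4l (294) and the first 876 bases of mt-Nd4 had no differing base, and its copy of mt-Co1 had 6 differing bases in 492. The copies took few counts, since all 16 together held 0.112% to 0.162% of the counts of the 37 genes and copies combined. Most of these counts were on Gm28438, the copy of mt-Nd3 printed above. Gm28438 had 109, 98 and 94 counts in AKR OFL and 107, 101 and 100 in B6N OFL, against 374, 353, 357 and 358 in AKR naive and 446, 389, 330 and 336 in B6N naive. It thereby took 55.9% to 65.3% of the counts of mt-Nd3 and Gm28438 together in OFL libraries and 83.2% to 88.4% in naive libraries, although the genes differed at T3C alone.

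The first comparison asked how mitochondrial transcripts differed between the strains after OFL. The mRNAs mt-Nd6, mt-Nd5, mt-Cytb and mt-Co1, subunits of complexes I, III and IV, were 1.09-fold to 1.54-fold lower in AKR OFL than in B6N OFL. Of 17 mitochondrial genes tested, these 4 were lower and 0 were higher (edgeR quasi-likelihood test, Benjamini-Hochberg adjusted p under 0.05). Over all 17994 genes tested, 8.86% were lower and 7.50% higher, 16.4% in all. No mitochondrial gene was higher at an unadjusted p under 0.05 either, and DESeq2 called 3 lower and 0 higher. The median log2 difference was -0.13 over the 11 mRNAs tested and -0.10 over the 17 genes, against 0.00 over all genes. Without B6N OFL replicate 2, mt-Nd5 was the only mitochondrial gene called.

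Complex I holds 7 of the mitochondrial mRNAs. mt-Nd6, the only mRNA of the light strand (ENSMUSG00000064368, chrM:13552-14070), had 5.78, 5.15 and 4.88 CPM in AKR OFL and 5.97, 9.73 and 8.56 CPM in B6N OFL. The groups did not overlap, but B6N OFL replicate 1 lay close to AKR OFL replicate 1. Its log2 difference was -0.62 (SE 0.16, edgeR adjusted p = 0.0114). It was -0.47 without B6N OFL replicate 2, the highest library (adjusted p = 0.109, the highest of 14 alternatives, which began at 0.000213). mt-Nd5, a proton-pumping subunit whose end overlaps mt-Nd6 on the other strand (ENSMUSG00000064367, chrM:11742-13565), had 197, 167 and 171 CPM in AKR OFL and 236, 246 and 193 CPM in B6N OFL. B6N OFL replicate 3 fell among the AKR OFL libraries. The log2 difference was -0.35 (SE 0.07, edgeR adjusted p = 0.00197), and DESeq2 alone among 14 alternatives ended the call (adjusted p = 0.0546, against a lowest of 8.15e-11).

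The other complex I genes tested did not pass after OFL. mt-Nd4, another proton-pumping subunit, averaged 155 ± 8.93 CPM in AKR OFL and 175 ± 21.1 CPM in B6N OFL (SD, n = 3 each), a log2 difference of -0.19 (SE 0.07, edgeR adjusted p = 0.0559). It passed in 5 of 14 alternatives, whose adjusted p ran from 0.00262 to 0.407, among them those without AKR OFL replicate 1 (0.0485), B6N OFL replicate 1 (0.0465) or B6N OFL replicate 3 (0.00308). mt-Nd1 had 421, 422 and 425 CPM in AKR OFL and 406, 416 and 386 CPM in B6N OFL, which did not overlap, at a log2 difference of 0.06 (SE 0.04, edgeR adjusted p = 0.355). The log2 difference was 0.03 for mt-Nd2 and -0.28 for mt-Nd3, and with its nuclear copy added mt-Nd3 was at -0.11. mt-Nd4l had a count of 0 in every OFL library.

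In complexes III and IV, mt-Cytb, the cytochrome b of complex III, had 340.4, 319.6 and 342 CPM in AKR OFL and 389.9, 423 and 336 CPM in B6N OFL. B6N OFL replicate 3 again lay within AKR OFL, and the log2 difference was -0.21 (SE 0.06, edgeR adjusted p = 0.0208). mt-Cytb was not called when B6N OFL replicate 2 (-0.13, adjusted p = 0.212) or AKR OFL replicate 2 (-0.18, adjusted p = 0.0767) was left out, and it passed in the other 12 of 14 alternatives, from 8.62e-05. mt-Co1 had 3210.5, 3301 and 3257 CPM in AKR OFL and 3438, 3577 and 3593 CPM in B6N OFL. The groups did not overlap, and the log2 difference was -0.13 (SE 0.04, edgeR adjusted p = 0.0178). It held in 10 of 14 alternatives, whose adjusted p ran from 0.0021 to 0.113, and was not called without AKR OFL replicate 1 (0.113), B6N OFL replicate 2 (0.101) or B6N OFL replicate 3 (0.0554), or in the fit of all 14 libraries (0.0972).

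Neither rRNA, no ATP synthase gene and no tRNA passed the test after OFL, and mt-Co2, at 0.209 to 0.686 CPM, was below the count filter. mt-Rnr1 had 355, 336 and 384 CPM in AKR OFL and 418, 428 and 299.9 CPM in B6N OFL, where replicate 3 was the lowest of all 6 libraries. Its log2 difference was -0.10 (SE 0.09, edgeR adjusted p = 0.503), and without B6N OFL replicate 3 it was -0.24 (adjusted p = 0.00172, against 0.961 at the other end of 14 alternatives). mt-Rnr2 averaged 2829 ± 155 CPM in AKR OFL and 2899.6 ± 232 CPM in B6N OFL (SD, n = 3 each), a log2 difference of -0.04. The log2 differences of mt-Atp8, mt-Atp6 and mt-Co3 lay at -0.07, -0.01 and -0.09. Among tRNAs, mt-Tw was at 0.03, mt-Ti at -0.06, mt-Tp at -0.30 and mt-Tq at -0.56. Over the 17 genes, 1 did not overlap upward and 3 downward, where 15.4% and 15.6% of all genes did.

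The second comparison asked how the strains differed in naive mice. Both rRNAs were lower in AKR naive than in B6N naive, and so were mt-Nd5, mt-Nd6 and mt-Tp, whereas mt-Nd1 and mt-Nd2, the first mRNAs after the rRNAs, were higher. Of 15 mitochondrial genes tested, 2 were higher and 5 lower (edgeR adjusted p under 0.05). Over all 17645 genes tested 37.8% were called, 18.3% higher and 19.5% lower, so a call was common in this comparison. DESeq2 also called 2 higher and 5 lower. The median log2 difference was 0.03 over the 15 genes and 0.01 over all genes.

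mt-Rnr2, the RNA of the large mitochondrial ribosomal subunit (ENSMUSG00000064339, chrM:1094-2675), had 1763, 1499, 1492 and 1393 CPM in AKR naive and 1998, 1818, 2201 and 2005 CPM in B6N naive. Every AKR naive library was below every B6N naive library, 1.30-fold on average (log2 -0.38, SE 0.06, edgeR adjusted p = 0.000124). mt-Rnr1, the RNA of the small subunit (ENSMUSG00000064337, chrM:70-1024), had 1112, 959, 947 and 913 CPM in AKR naive and 1223, 1097, 1337 and 1223 CPM in B6N naive. AKR naive replicate 1 reached above the lowest B6N naive library, and the log2 difference was -0.31 (SE 0.06, edgeR adjusted p = 0.000523).

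Complex I genes differed in both directions. mt-Nd1 (ENSMUSG00000064341, chrM:2751-3707) had 2177, 1802, 1916 and 1846 CPM in AKR naive and 1575, 1559.5, 1759.8 and 1696 CPM in B6N naive. The groups did not overlap, with AKR naive 1.18-fold higher (log2 0.23, SE 0.05, edgeR adjusted p = 0.00249). mt-Nd2 averaged 1709 ± 159 CPM in AKR naive and 1512 ± 54.4 CPM in B6N naive (SD, n = 4 each; log2 0.18, SE 0.05, edgeR adjusted p = 0.0128). mt-Nd5 had 2380.3, 1918, 2073 and 2042 CPM in AKR naive and 2353, 2234, 2483 and 2383 CPM in B6N naive, where only AKR naive replicate 1 lay within B6N naive. Its log2 difference was -0.17 (SE 0.05, edgeR adjusted p = 0.0211). mt-Nd5 was not called when AKR naive replicate 2 (adjusted p = 0.0750), AKR naive replicate 4 (0.0589) or B6N naive replicate 3 (0.0762) was left out, and it passed in 13 of 16 alternatives, from 7.05e-06.

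On the light strand, mt-Nd6 had 457, 379, 398 and 393 CPM in AKR naive and 452, 440.4, 488 and 469 CPM in B6N naive. AKR naive replicate 1 lay within B6N naive, and the log2 difference was -0.18 (SE 0.05, edgeR adjusted p = 0.00788). mt-Tp had 40.3, 33.0, 33.4 and 33.2 CPM in AKR naive and 39.4, 40.4, 41.7 and 40.7 CPM in B6N naive. Again AKR naive replicate 1 alone lay at the B6N naive level, and the log2 difference was -0.21 (SE 0.06, edgeR adjusted p = 0.00814). mt-Rnr1, mt-Rnr2, mt-Nd1, mt-Nd2, mt-Nd6 and mt-Tp were called in all 16 alternatives.

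The remaining 8 mRNAs tested did not pass in naive mice. The log2 difference was 0.03 for mt-Co1, 0.03 for mt-Cytb, 0.04 for mt-Nd4, 0.08 for mt-Atp8, -0.05 for mt-Atp6 and 0.07 for mt-Co3. mt-Nd3 was at 2.51, 2.71, 2.43 and 2.38 CPM in AKR naive and 2.87, 2.79, 3.16 and 2.92 CPM in B6N naive, which did not overlap (log2 -0.22, SE 0.12, edgeR adjusted p = 0.182). With Gm28438 added, mt-Nd3 averaged 19.3 ± 1.82 CPM in AKR naive and 19.4 ± 1.42 CPM in B6N naive (SD, n = 4 each), which overlapped, at a log2 difference of -0.01. mt-Co2 was at 0.41 (SE 0.17, edgeR adjusted p = 0.0726) and passed in 3 of 16 alternatives, whose adjusted p ran from 0.0134 to 0.299, among them those without AKR naive replicate 2 (0.0324) or replicate 4 (0.0346). mt-Nd4l, with 5 to 8 counts in each naive library, was below the count filter. In all, 1 gene did not overlap upward and 2 downward, where 17.0% and 17.7% of all genes did.

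**Figure D4:**
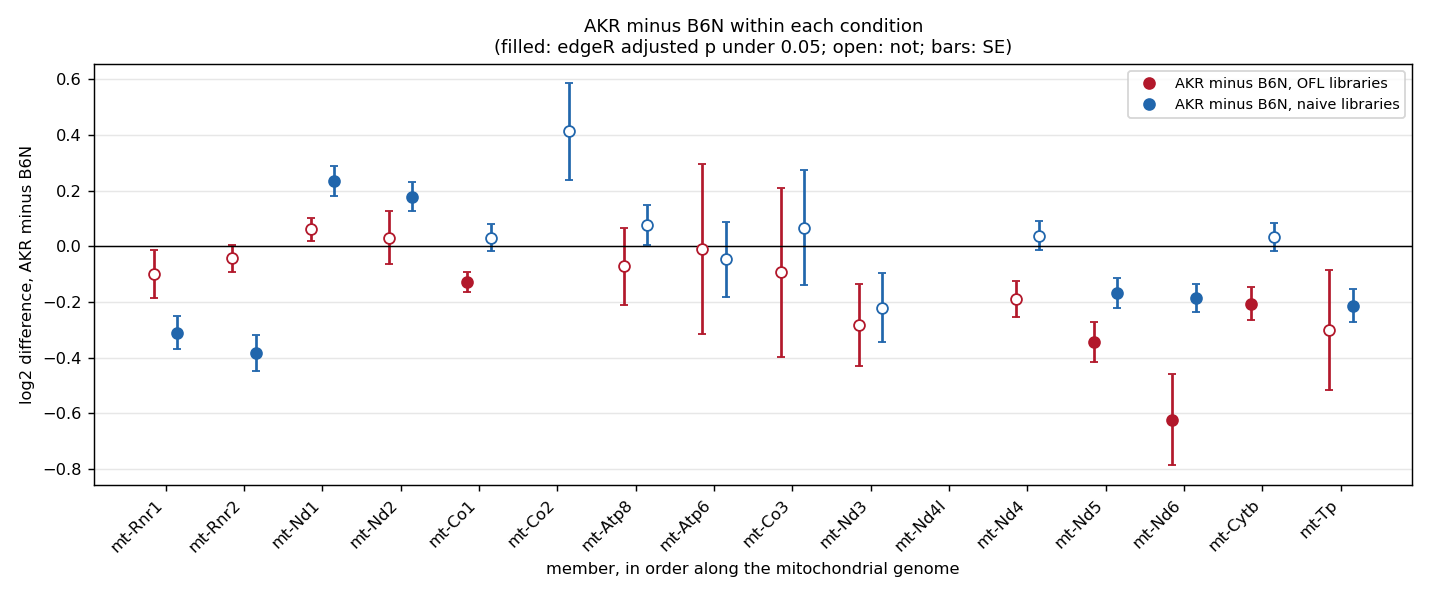
Log2 difference, AKR minus B6N, of the rRNAs, the mRNAs and mt-Tp in OFL libraries (red) and naive libraries (blue), with bars for the standard error and filled points for edgeR adjusted p under 0.05. Filled points range from -0.62 (mt-Nd6 after OFL) to 0.23 (mt-Nd1 in naive mice), and genes not tested in a comparison have no point.

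Ratios between 2 mitochondrial genes within a library do not depend on the total count, and those given here were chosen after their values were seen and carry no test. The ratio of mt-Nd1 to mt-Nd5 counts was 2.14, 2.53 and 2.49 in AKR OFL and 1.73, 1.69 and 2.001 in B6N OFL, and it was 0.915, 0.940, 0.924 and 0.904 in AKR naive and 0.669, 0.698, 0.709 and 0.712 in B6N naive. AKR lay above B6N in every library under both conditions. The ratio of mt-Cytb to mt-Nd5 was 1.13 to 1.19 in AKR naive and 0.972 to 1.02 in B6N naive, which did not overlap, and 1.73 to 1.997 in AKR OFL and 1.66 to 1.74 in B6N OFL, which did. The ratio of mt-Nd6 to mt-Nd5, which face each other on the 2 strands, was 0.192 to 0.198 in AKR naive and 0.192 to 0.197 in B6N naive.

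The third comparison set OFL libraries against naive libraries of the same strain, and in it the condition and the library set cannot be told apart. In both strains 10 of 12 mRNAs tested were lower in OFL libraries, mt-Nd6 most of all, while mt-Rnr2 and mt-Nd3 were higher. Of the 18 mitochondrial genes that passed the count filter, 5 were higher and 12 lower in AKR OFL than in AKR naive, and 5 were higher and 12 lower in B6N OFL than in B6N naive (edgeR adjusted p under 0.05). Over all 20291 genes tested, 78.7% were called in AKR (39.8% higher and 38.8% lower) and 78.4% in B6N (40.0% higher and 38.4% lower), so a call alone says little here. Of the genes called higher, mt-Tw, mt-Ti and mt-Tq had a count of 0 in every naive library and passed the count filter through the OFL libraries alone, and mt-Co2, called lower, passed it through the naive libraries alone, so these 4 had to differ, and neither their calls nor their lack of overlap carry weight. The median log2 difference over the 12 mRNAs was -2.76 in AKR and -2.57 in B6N, against -0.01 in AKR and -0.00 in B6N over all genes. In each strain 5 genes lay wholly above and 12 wholly below the naive range, where 38.9% of all genes lay above and 37.8% below in AKR, and 39.2% above and 37.4% below in B6N.

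**Figure D5:**
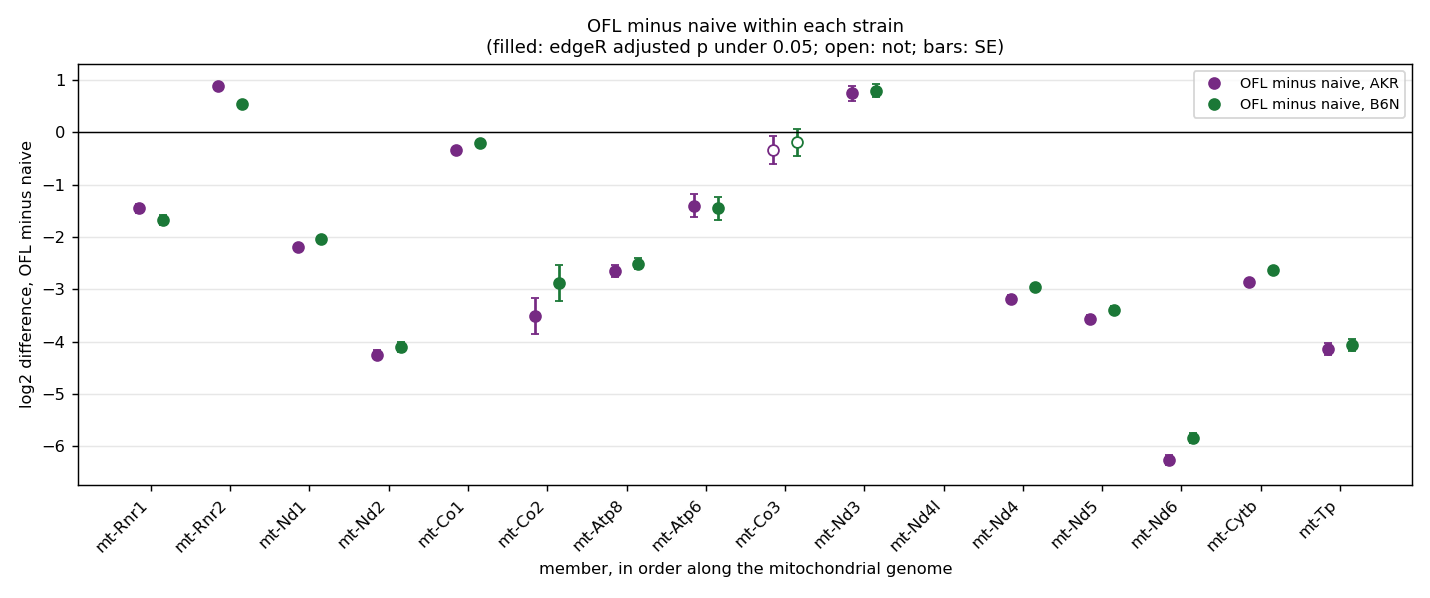
Log2 difference, OFL minus naive, of the rRNAs, the mRNAs and mt-Tp in AKR (purple) and B6N (green), with bars for the standard error and filled points for edgeR adjusted p under 0.05. The values run from -6.27 (mt-Nd6 in AKR) to 0.88 (mt-Rnr2 in AKR), and mt-Co3 was not called in either strain.

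The rRNAs moved in opposite directions between the library sets. mt-Rnr2 had 2699.8, 2788 and 3000.5 CPM in AKR OFL and 2936, 3112 and 2651 CPM in B6N OFL, all above the highest naive library of 2201 CPM. It was 1.84-fold higher in AKR OFL than in AKR naive (log2 0.88, SE 0.06, edgeR adjusted p = 1.28e-12) and 1.45-fold higher in B6N OFL than in B6N naive (log2 0.53, SE 0.06, adjusted p = 2.5e-08). mt-Rnr1 was 2.74-fold lower in AKR OFL than in AKR naive (log2 -1.46, SE 0.09) and 3.19-fold lower in B6N OFL than in B6N naive (log2 -1.67, SE 0.09). The ratio of mt-Rnr1 to mt-Rnr2 counts was thus 0.121 to 0.132 in AKR OFL and 0.113 to 0.142 in B6N OFL, against 0.631 to 0.656 in AKR naive and 0.604 to 0.612 in B6N naive.

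The mRNAs of complex I differed by very different amounts. mt-Nd6 was 77.1-fold lower in AKR OFL than in AKR naive (log2 -6.27, SE 0.10, edgeR adjusted p = 2.36e-26) and 57.2-fold lower in B6N OFL than in B6N naive (log2 -5.84, SE 0.09, adjusted p = 1.74e-26). Its heavy strand neighbour mt-Nd5 was 11.8-fold lower in AKR and 10.5-fold lower in B6N, so that the ratio of mt-Nd6 to mt-Nd5 counts was 0.0285 to 0.0309 in AKR OFL and 0.0253 to 0.0444 in B6N OFL, against 0.192 to 0.198 in naive libraries. mt-Nd2 had 97.4, 88.0 and 84.5 CPM in AKR OFL, against 1931, 1561, 1707 and 1638 CPM in AKR naive. In B6N the mt-Nd2 level was 90.9, 103 and 68.5 CPM after OFL, against 1495, 1447, 1575 and 1531 CPM in naive mice. That made mt-Nd2 19.0-fold lower in AKR and 17.3-fold lower in B6N, whereas mt-Nd1, upstream of it on the same strand, was 4.58-fold lower in AKR and 4.09-fold lower in B6N. mt-Nd4 was 9.07-fold lower in AKR and 7.80-fold lower in B6N.

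mt-Nd3 was the only mRNA called higher, and its direction turned when the counts of its nuclear copy were added. Alone it had 4.30, 4.25 and 4.08 CPM in AKR OFL and 4.87, 4.83 and 5.59 CPM in B6N OFL, against 2.38 to 2.71 CPM in AKR naive and 2.79 to 3.16 CPM in B6N naive. The log2 difference came to 0.74 for AKR (SE 0.14, edgeR adjusted p = 1.81e-05) and 0.80 for B6N (SE 0.12, adjusted p = 2.04e-06). With the counts of Gm28438 added it was -0.75 in AKR (adjusted p = 1.7e-08) and -0.66 in B6N (adjusted p = 1.05e-07). The sum of both genes had 12.4, 11.1 and 10.9 CPM in AKR OFL and 12.2, 11.9 and 12.7 CPM in B6N OFL, against 20.9, 17.7, 20.9 and 17.9 CPM in AKR naive and 20.4, 20.3, 19.5 and 17.3 CPM in B6N naive.

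In complex III, mt-Cytb was 7.27-fold lower in AKR OFL than in AKR naive and 6.19-fold lower in B6N OFL than in B6N naive. In complex IV, mt-Co1 differed least of the called mRNAs, 1.27-fold lower in AKR OFL (log2 -0.34, SE 0.05, edgeR adjusted p = 1.2e-07) and 1.15-fold lower in B6N OFL (log2 -0.20, SE 0.05, adjusted p = 0.000325). The ratio of mt-Co1 to mt-Cytb counts was 9.43 to 10.3 in AKR OFL and 8.46 to 10.7 in B6N OFL, against 1.70 to 1.71 in AKR naive and 1.69 to 1.74 in B6N naive. mt-Co2, all of whose sequence is shared with the nucleus, was 11.4-fold lower in AKR and 7.34-fold lower in B6N, at levels of at most 5.65 CPM in any library. It passed the count filter through the naive libraries alone, so the size of these differences is uncertain and carries little weight. mt-Co3 was not called, with a log2 value of -0.34 for AKR (edgeR adjusted p = 0.235) and -0.19 in B6N (adjusted p = 0.498). In complex V, mt-Atp8 was 6.28-fold lower in AKR and 5.70-fold lower in B6N, and mt-Atp6 was 2.64-fold lower in AKR and 2.73-fold lower in B6N.

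The tRNAs with the most counts differed between the library sets. mt-Tp, a light strand gene like mt-Nd6, had 31, 29 and 22 counts in AKR OFL and 30, 37 and 37 in B6N OFL, against 644 to 819 in AKR naive and 844 to 1003 in B6N naive. It was 17.6-fold lower in AKR OFL (log2 -4.14, SE 0.12, edgeR adjusted p = 3.06e-21) and 16.7-fold lower in B6N OFL (log2 -4.06, SE 0.11, adjusted p = 9.52e-22). The other light strand tRNAs went both ways. Over all libraries, mt-Tq had 101 counts in OFL against 0 in naive libraries. Higher in OFL libraries too were mt-Ty (26 against 1), mt-Te (18 against 1) and mt-Ta (6 against 1). Lower were mt-Tc (0 against 23), mt-Ts1 (0 against 2) and mt-Tn (0 against 1). All of these but mt-Tq were below the count filter. mt-Tw had 82, 72 and 71 counts in AKR OFL and 88, 76 and 62 in B6N OFL, against 0 in all 8 naive libraries. Against a floor of 3 counts per library, mt-Tw was at least 38.7-fold higher in AKR OFL and at least 39.6-fold higher in B6N OFL. mt-Ti, for isoleucine, was at least 9.43-fold and 10.4-fold higher in AKR and in B6N, and mt-Tq, for glutamine, at least 6.88-fold and 10.7-fold higher. mt-Tw, mt-Ti and mt-Tq passed the count filter through the OFL libraries alone, so these sizes carry little weight.

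Of the 22 tRNAs, 11 lie next to an annotated gene on the other strand. In OFL libraries 9 of these 11 had counts, 958 in all, and the other 11 had 0. The counts were 451 on mt-Tw, 186 on mt-Tp, 114 on mt-Ti, 101 on mt-Tq, 37 on mt-Tt, 26 on mt-Ty, 19 on mt-Tm, 18 on mt-Te and 6 on mt-Ta. In naive libraries 6701 of 6732 tRNA counts were on mt-Tp, and mt-Tc followed with 23. There, 5 of the 11 with such a neighbour had counts, 6706 in all, and 3 of the other 11 had 26. The 14 heavy strand tRNAs together had 99 to 107 counts in AKR OFL and 93 to 112 in B6N OFL, against 0 or 1 in every naive library. In all, 9 tRNAs had a count of 0 in all 14 libraries.

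Most markers of the cell types of the cortex were lower in the OFL libraries too. All 8 neuronal markers were called lower in each strain (median log2 -0.52 for AKR, -0.54 for B6N). Their summed level was 4033 to 4228 CPM in AKR OFL and 3765 to 4118 CPM in B6N OFL, against 6878 to 7056 CPM in AKR naive and 6792 to 7277 CPM in B6N naive. Of 5 markers each, 4 of oligodendrocytes, 5 of microglia, 3 of endothelial cells and 3 of astrocytes were lower in AKR OFL. In B6N OFL 3 of oligodendrocytes, 4 of microglia, 4 of endothelial cells and 4 of astrocytes were lower, and 1 endothelial and 1 astrocyte marker were higher. Over all genes 38.8% were lower and 39.8% higher in AKR, and 38.4% were lower and 40.0% higher in B6N. Counts out of 5 markers therefore say little. The part of these markers in the mitochondrial differences was not tested.

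Measures of RNA without a poly(A) tail moved with the same boundary. Summed replication-dependent histones stood at 348 to 374 CPM in AKR OFL and 357 to 362 CPM in B6N OFL, against 45.025 to 47.0 CPM in AKR naive and 61.3 to 64.2 CPM in B6N naive. Malat1, a nuclear long RNA, stood at 8013 to 8318 CPM in AKR OFL and 7696 to 8367 CPM in B6N OFL, against 929 to 1057 CPM in AKR naive and 906 to 1026 CPM in B6N naive. Its list of nuclear long RNAs was mixed, since 3 of 4 tested genes were higher and 1 was lower in OFL libraries of each strain. Over all genes 39.8% were higher and 38.8% lower in AKR, and 40.0% and 38.4% in B6N. Summed, the 5 listed long RNAs stood at 11165 to 11589 CPM in AKR OFL and 10507 to 11478 CPM in B6N OFL. In naive libraries the sum was 5484 to 6355 CPM in AKR and 5634 to 5993 CPM in B6N. The part of these RNAs in the mitochondrial differences was not tested.

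The last comparison asked whether the OFL minus naive difference itself differed between the strains. mt-Rnr2 was the only mitochondrial gene called, of 18 tested, with a difference 0.35 larger on the log2 scale in AKR than in B6N (SE 0.09, edgeR adjusted p = 0.0215). Over all genes 5.15% were called, 3.61% higher and 1.54% lower. No mitochondrial gene was called lower, 5 were lower at an unadjusted p under 0.05, and DESeq2 called 0 in either direction. The mt-Rnr2 call held in 17 of 21 alternatives, between 0.29 and 0.42 with adjusted p of 1.08e-08 to 0.0981. It ended with DESeq2 (adjusted p = 0.0981) and without AKR OFL replicate 3 (0.0722), B6N OFL replicate 3 (0.0757) or B6N naive replicate 3 (0.0552). By p, mt-Cytb came next at -0.23 (SE 0.08, edgeR adjusted p = 0.126), then mt-Nd6 at -0.43 (SE 0.17, adjusted p = 0.170), mt-Nd4 at -0.22 (adjusted p = 0.193), mt-Co1 at -0.15 (adjusted p = 0.208) and mt-Nd1 at -0.16 (adjusted p = 0.245). The other tested rRNA and mRNAs, with adjusted p of 0.355 or more, were mt-Rnr1 at 0.22, mt-Nd5 at -0.17, mt-Nd2 at -0.14, mt-Co2 at -0.64 (SE 0.65), mt-Atp8 at -0.14, mt-Co3 at -0.15, mt-Nd3 at -0.05 and mt-Atp6 at 0.05. mt-Nd4l was not tested, and the 3 tRNAs at 0 in naive libraries allow no such difference.

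The nuclear genes for mitochondrial gene expression were compared as a list of 75, made up of 11 for transcription, 13 for replication and maintenance of the DNA, 26 for RNA processing and modification, 10 for RNA stability and decay and 15 translation factors. After OFL 3 were higher and 3 lower in AKR than in B6N (median log2 0.01), where 7.50% of all genes were higher and 8.86% lower. In naive mice 11 were higher and 10 lower of 74 tested (median 0.02), where 18.3% of all genes were higher and 19.5% lower. Neither share of the list was above that of all genes. Polrmt, the mitochondrial RNA polymerase, was higher in AKR under both conditions, by a log2 difference of 0.23 after OFL (SE 0.07, edgeR adjusted p = 0.0270) and 0.14 in naive mice (SE 0.05, adjusted p = 0.0321). Tfb1m, which methylates mt-Rnr1, was lower in AKR, at -0.67 after OFL (adjusted p = 0.0143) and -0.38 in naive mice (adjusted p = 0.0492). Trmt61b, a methyltransferase of mitochondrial RNA, was lower in AKR, at -0.41 after OFL (adjusted p = 0.0275) and -0.53 in naive mice (adjusted p = 0.000293). The initiation factor Mtif3 was higher in AKR by 0.44 after OFL (adjusted p = 0.00215) and 0.22 in naive mice (adjusted p = 0.0186), with 29.4% of its exonic bases under a gene of the other strand. Tfam, which packages mitochondrial DNA and starts its transcription, passed in no comparison.

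Between the library sets, 27 of the 75 were higher and 22 lower in AKR OFL than in AKR naive, and 29 were higher and 23 lower in B6N OFL than in B6N naive (median log2 0.01 in each), where 39.8% of all genes were higher and 38.8% lower in AKR and 40.0% were higher and 38.4% lower in B6N. The list as a whole was thus at or below the share of all genes in both directions. Of its 5 parts, the 10 genes for RNA stability and decay had the median furthest from 0. Of these 10, 6 were higher and 2 lower in each strain (median log2 0.42 in each). Lrpprc, which stabilises mitochondrial mRNAs, was higher in OFL libraries, at log2 0.83 for AKR and 0.81 for B6N, and so was Mtpap, the mitochondrial poly(A) polymerase, at 0.66 for AKR and 0.60 for B6N. Polrmt was lower in OFL libraries, at log2 -0.64 for AKR and -0.74 for B6N. Slirp, the partner of Lrpprc, has 97.8% of its exonic bases under a gene of the other strand, so its 14.8 CPM in AKR OFL and 16.5 CPM in B6N OFL, against 0.0467 CPM in AKR naive and 0.0894 CPM in B6N naive, are uncertain. Mterf3, a repressor of mitochondrial transcription, was the only one called for a difference between the strains in this change, 0.42 larger in AKR (SE 0.09, edgeR adjusted p = 0.00348).

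The other subunits of complexes I, III, IV and V, 82 nuclear-encoded ones, had medians nearer to 0 between the library sets. Of 79 tested, 10 were higher and 47 lower in AKR OFL than in AKR naive (median log2 -0.20), and 11 were higher and 49 lower in B6N OFL than in B6N naive (median -0.19). Over all genes 39.8% were higher and 38.8% lower in AKR, and 40.0% were higher and 38.4% lower in B6N. Uqcrq of complex III was lower in OFL libraries, at log2 -1.51 for AKR and -1.52 for B6N, as were Atp5g3 of complex V, at -1.25 for AKR and -1.24 for B6N, and Cyc1 of complex III, at -1.18 for AKR and -1.20 for B6N. Between strains, 2 were higher and 2 lower of 77 tested after OFL (median 0.02), and 13 were higher and 5 lower of 79 tested in naive mice (median 0.04), where 7.50% and 8.86% of all genes were higher and lower after OFL and 18.3% and 19.5% in naive mice. Ndufb10 of complex I was lower in AKR under both conditions, at log2 -0.41 after OFL (SE 0.06, edgeR adjusted p = 0.000134) and -0.31 in naive mice (SE 0.04, adjusted p = 1.6e-05).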

How the data were processed

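Total RNA of anterior cingulate cortex was sequenced in 14 libraries made with the TruSeq RNA Sample Prep Kit v2, per the labels' protocols. The authors deposited raw read counts per gene as whole numbers, in one table for the OFL and one for the naive libraries. Per the submitters' processing notes, CASAVA, cutadapt 2.7, TopHat2 2.1.1, HTSeq, edgeR and build GRCm38 were used. The strand setting, the handling of reads that match several places and the annotation release are not given in the sources used here.

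Gene IDs were matched to GENCODE M21 (53274 of 53465). The mitochondrial genes and all gene lists were chosen with earlier results of these data known. Every mitochondrial gene was accounted for, the mRNAs and rRNAs were named in each comparison where they were tested, and from each list up to 4 called genes were candidates to be named, by smallest p. Of the 37 genes, 9 tRNAs had no count in any library and 10 others had at most 9 counts in every library.

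Counts were tested with edgeR 4.0.16 in R 4.3.3 (quasi-likelihood F-test, two-sided, filterByExpr, TMM, Benjamini-Hochberg over all genes tested, called at adjusted p under 0.05). The strain comparisons used the libraries of 1 condition, and the OFL minus naive differences and their difference between strains used 1 fit of all 14 libraries. Levels printed per library are TMM-scaled CPM (counts relative to library size) from the fit of all 14. A floor of 3 counts was 0.118 to 0.222 CPM and covers counting error only. Alternatives were DESeq2 1.42.0, other size factors, other filters, a replicate block, other sets of libraries, addition of nuclear copies and leaving out each library. A nuclear copy shares at least 20 stretches of 31 bases, and 5% of its own, with the gene. The fit was tested on simulated counts. Replicates of a group differed beyond sampling noise (chi-square per gene 1.73 to 5.1), so none was counted as a duplicate. The normalised per-library files were not used here.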

Additional observations from a re-analysis of the deposited data

Results flagged for a closer look

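In AKR naive, mt-Tp had 40.3 CPM in replicate 1 against 33.0 to 33.4 CPM in the other 3 libraries, a gap that is large for the range of 4 libraries. It was the only such gap among 36 gene and group combinations, where chance flags about 1 in 20. The OFL minus naive difference of mt-Rnr2 differed between the strains by 0.35 on the log2 scale (AKR minus B6N, edgeR adjusted p = 0.0215), and the call ended under 4 of 21 alternatives named with the result.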

How the results depend on the processing

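Of the single-gene values, 656 kept their direction and side of the threshold under settings other than leaving out a library, 7 became called, 3 lost the call and 2 reversed. The reversed ones were mt-Nd3 with nuclear copies added, -0.75 in AKR and -0.66 in B6N against 0.74 and 0.80 without them. With copies added the mRNAs held 0.446% of all counts in AKR OFL. With no filter on low counts and with DESeq2, 9 mitochondrial genes were higher in OFL than in naive libraries in each strain, against 5. The added genes were below the count filter of the main fit, so their calls carry little weight. Over all 36841 genes with a count, DESeq2 called 8995 higher in AKR and 9029 in B6N. For the difference between strains in that change, no filter gave 2 higher and 3 lower, and DESeq2 gave 0 higher, against 1 higher and 0 lower. Leaving out 1 library at a time, after OFL 813 to 1692 genes were higher in AKR (1349 with all; the 813 without B6N OFL replicate 2) and 1 to 5 mitochondrial genes lower. For the strain difference in the change, it gave 207 to 402 genes lower (312 with all; the 207 without B6N OFL replicate 2), and 0 to 1 mitochondrial genes higher and 0 to 2 lower. In these fits 9 single-gene values became called and 12 lost the call, and 705 did neither. Replicate numbers did not pair the libraries: correlations of same-numbered libraries were -0.0426 to 0.0439, and 2 of 13 were highest with their own number. With the replicate block, 1391 genes were higher and 1630 lower after OFL, and 5 mitochondrial genes were lower, since mt-Nd4 passed (-0.19, adjusted p = 0.0239, against 0.00262 to 0.407 over its alternatives); the block changed no other mitochondrial call. The cause of these changes was not tested. The counts of mt-Nd4l and most tRNAs were near or at 0, and the reason was not tested.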
